A study of Mus musculus with 3 samples.

Results

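The baseline transcriptome of untreated HoxA9-Meis1 acute myeloid leukaemia (AML) cells was described from 1 array, of 3 in the series. A gene entered the description when its brightest 60-base probe was called well above background by the scanner software on the array of untreated cells, and each gene was given the processed signal of that probe. This held for 18322 of 34773 gene names, or 52.7%, and for 13076 of the 22369 names found in the RefSeq table, or 58.5%. Counts of listed genes below are to be read against the second of these shares, whether or not it is repeated. A gene's percentile is its rank by signal among the 18322 genes, and the brightest 10% are those above percentile 90. That band holds 1832 of the 34773 gene names. Counts in it are given out of all genes of a list, called or not, so the matching share of all names is below 10%.

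The cells came from whole bone marrow of C57Bl/6 mice, are named for the homeobox proteins Hoxa9 and Meis1, and were kept for 24 h in SFEM, a serum-free medium for blood progenitors. The array described here received RNA of cells that were given no compound; the other arrays, which were not compared, held cells exposed for 24 h to the compound labelled A2 (Pyrydopyrazine) at 3.4 µM or to retinoic acid together with 1α-hydroxy vitamin D3, 10 µM each. All groups share the strain, the leukaemia and the medium. How Hoxa9 and Meis1 were introduced, whether the cells are 1 clone, and how many animals gave them are not given in the sources used here, so that any normal marrow cells in the culture cannot be told apart from the leukaemia by label. With 1 array and no biological replicate, no test across samples was possible and none was made.

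Hoxa9 is a homeobox transcription factor of the posterior HOXA cluster that is active in blood stem and progenitor cells and falls silent as myeloid cells mature. Meis1 and the Pbx proteins belong to the TALE class of homeobox factors, which bind DNA together with HOX proteins. Forced joint expression of Hoxa9 and Meis1 in mouse marrow progenitors is a widely used way of producing a transplantable AML, in which the cells keep dividing at an immature granulocyte and monocyte stage.

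The probes that read these genes are shown first, because their signals decide what the array can say about the genes the cells are named for. The first 30 of 60 bases are given 5′ to 3′ in lower case, with capitals on any run of at least 6 bases in which a pair of bases alternates. Positions are those of the scanner file in mouse build mm9, all on the minus strand; exons and untranslated regions are not given, since no annotation of that build was used.
Hoxa9 at chr6:52175595-52175654: tttgtccctgactgactatgcttgtggttc
Hoxa9 at chr6:52174165-52174224: taaaaAGAGAGcaagctagaaagaaaaaga
Meis1 at chr11:18780695-18780754: gtcaTGTGTGTatttttccatagtcccacc
The brighter Hoxa9 probe gave a signal of 7260, at percentile 82.6, and the other Hoxa9 probe a signal of 1752. The single Meis1 probe gave 5.76 and was not well above background; the dimmest probe that was gave 19.7. Whether that probe lies in the part of Meis1 that was used to make these cells is not given in the sources used here, so it does not check the name of the cells.

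The authors' value table has a control column that does not hold the values of any scanner file, even by rank, and it served as a second reading. Whether it is another array or scan of the untreated cells is not given in the sources used here: by rank over all spots it correlated at 0.936 with the untreated scanner file and at 0.923 and 0.925 with the treated ones, and the treated columns of the table match the scanner files with each other's label. Values from it are therefore those of a column labelled control. There the brighter Hoxa9 probe had a signal of 5174 and the other one 3292, and the Meis1 probe 12.4. After each source was scaled to its 75th percentile, the brighter Hoxa9 probe was 0.29 higher on the scanner array on the log2 scale and the other probe was lower, at -1.11. Both Hoxa9 probes were well above the floor in both sources, and they differed between the sources in opposite directions.

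Precision was judged within the array and between the control sources. Over 241 probes printed 10 times and well above background, the median SD of the log2 signal was 0.07. Between the control sources the log2 difference had an SD of 0.52 over all 18322 genes, 0.83 in the dimmest 10% and 0.17 in the brightest 10%. At least 2-fold higher on the scanner array were 410 genes, or 2.24%, and at least 2-fold lower 176 genes, or 0.961%; 405 and 168 of these lay in the dimmer 50% of genes. Genes entered this comparison by their call on the scanner array, through the probe brightest there, and no call was applied to the control column. A gene near the floor is thus counted where the scanner array is high, so the counts in opposite directions cannot be compared. The 410 had a median signal of 52.0 on the scanner array and 6.77 in the second source. Spots of this kind made up 4.42% of the spots above background in rows 1 to 96 of the array and 0.305% in rows 289 to 384; whether the position matters was not tested. Of 308 negative control spots, 4 were called well above background, and of 1372 olfactory, vomeronasal and trace amine receptor genes 76 were, or 5.54%, at a median percentile of 10.1. Where 2 percentiles stand in brackets for a gene, the first is that of the scanner array and the second that of the control column.

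**Figure D1:**
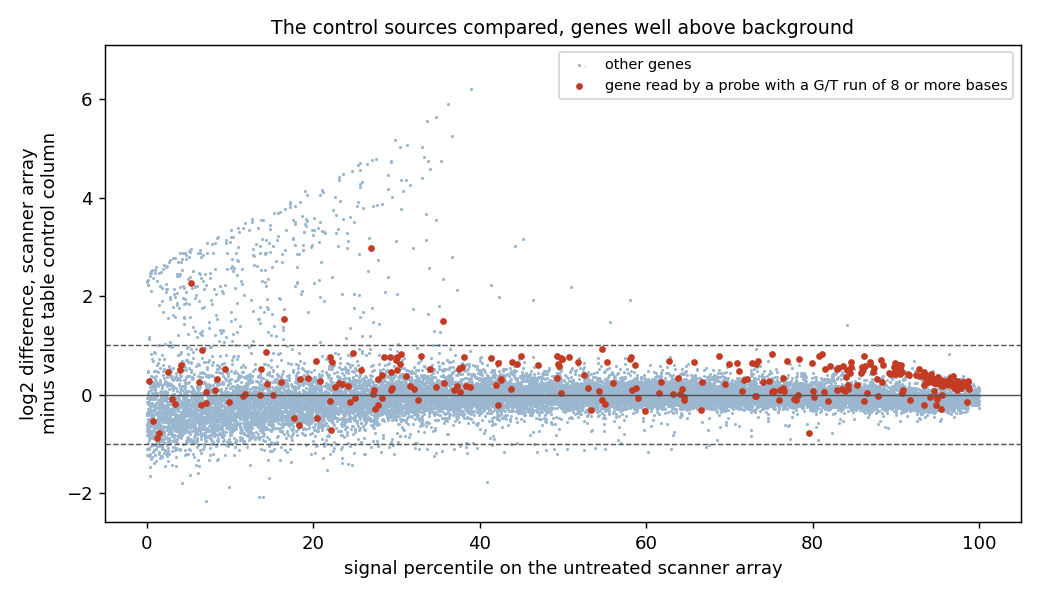
Each point is 1 of the 18322 genes well above background; the x axis is its signal percentile on the untreated scanner array and the y axis the log2 difference between that array and the value table's control column after scaling each to its 75th percentile, with dashed lines at 2-fold. The spread narrows from left to right, the points above the upper line lie nearly all in the dimmer 50% of genes, and the genes read by a probe with a G/T run of at least 8 bases (red) lie mostly above 0.

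The brightness of a probe depends on its sequence as well as on the transcript, so the order of genes by signal is not an order of RNA amounts. Of 11172 genes with several probes, 3805 had all probes above background, and between the brightest and the dimmest of them the median gap was 4.33-fold. In 3512 some probes were above background and others were not. Of 348 called genes of the lists below with several probes, 79 had a probe that was not above background. Dimmer probes are given below for some genes only, and where none is given the probes of a gene need not agree. One feature that went with bright probes, where it was long, was a run in which G and T alternate. The 6 brightest protein-coding genes read by a probe with such a run of at least 8 bases are given with 30 bases at the edge of the run and the run in capitals; lengths are those in the whole probe.
Dennd4a at chr9:64659886-64659945, 37 bases: GTGTGTGTGTGTGTGTGTGTctgtgcacac
Sp110 at chr1:87473677-87473736, 37 bases: GTGTGTGTGTGTGTGTGTGTctgaactttg
Luc7l2 at chr6:38559052-38559111, 32 bases: GTGTGTGTGTGTGTGTGTGTagagtttaaa
Spag7 at chr11:70477360-70477419, 30 bases: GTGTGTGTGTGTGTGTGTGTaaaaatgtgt
Tuba1c at chr15:98868477-98868536, 8 bases: gtcttTGTGTGTGctctaactgtcctaaac
Ubtf at chr11:102166995-102167054, 29 bases: GTGTGTGTGTGTGTGTGTGTctagagcctg
Their signals ran from 155897 for Ubtf to 191725 for Dennd4a, all above percentile 98. The dimmest probe of the same gene gave 33.4 for Dennd4a, 122 for Luc7l2, 746 for Sp110 and 1096 for Ubtf. Tuba1c, an alpha tubulin with a short run, had 113248 on its other probe; Spag7 has 1 probe.

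Of the 74 genes whose probe held a run of at least 16 bases, all 74 were called well above background, at a median percentile of 95.6, and 65 lay in the brightest 10%. At 12 to 15 bases all 45 genes were called, at a median percentile of 83.7, and at 3 bases or fewer 51.2% of 21432 genes were, at 48.6. Shorter runs did not go with bright signals. At 10 to 11 bases 58 of 60 genes were called, at a median percentile of 51.3, and at 8 to 9 bases 117 of 162, at 37.7. In all, 294 genes above background were read by a run of at least 8 bases, and they made up 4.69% of the brightest 10%. For 148 of these genes another probe without such a run was on the array, and for 79 that probe was also well above background. Other alternating pairs were dimmer above the same minimum length, but run lengths were not matched between pairs. Of probes with a run of at least 12 bases, 122 of 122 were above background for G and T, at a median signal of 30031. For A and C 59 of 62 were, at 343, and for A and G 28 of 29, at 2564. The control sources also differed by sequence: the median log2 difference was 0.32 for G/T runs of at least 12 bases, -0.88 for A/G runs and -0.06 over all probes above background. Among the genes listed below, 6 were read through a G/T run of at least 8 bases (Eya1, Hemgn, Hoxd13, Bcl2, Tyms and Cox6c), and this is said where they appear.

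**Figure D2:**
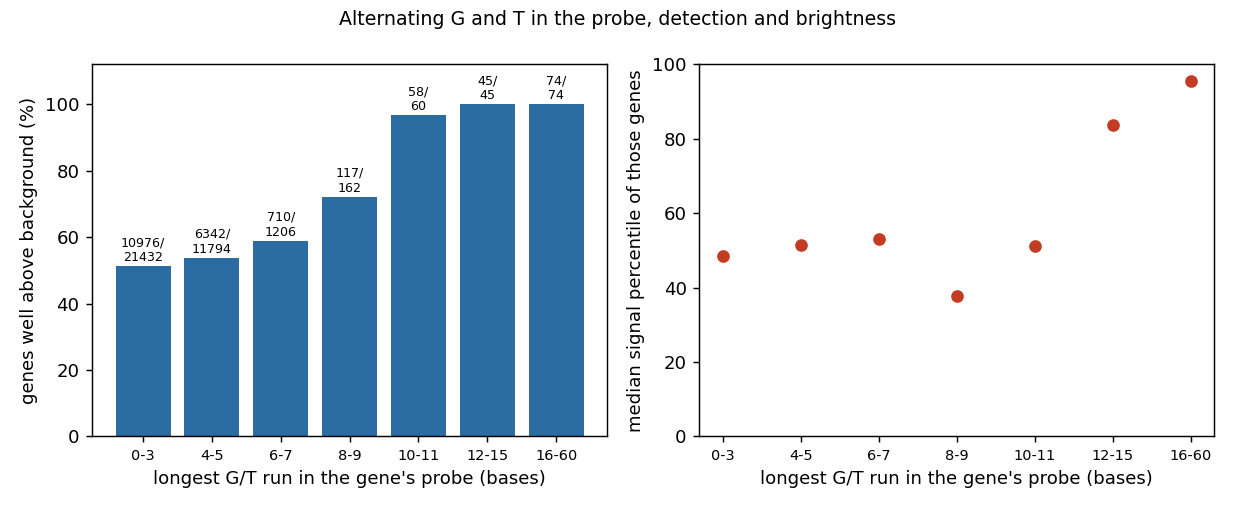
The left panel shows, for genes grouped by the longest alternating G/T run in the probe used, the percentage of genes well above background, with the counts above the bars; the right panel shows the median signal percentile of those genes. Detection rises from 51.2% to 100%. The median percentile is 37.7 at 8 to 9 bases and reaches 95.6 in the group with the longest runs.

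Ribosomal protein genes, H2A histone genes and pseudogenes made up most of the brightest names. Of the 25 brightest RefSeq names, 10 encode ribosomal proteins (among them Rpl37a, Rplp0, Rpl35, Rps14, Rps10, Fau, Rps20 and Rpl10), 5 are replication-dependent or variant H2A histones (H2ac12, H2ac10, H2aj, H2ac11 and H2ac15), and 4 are pseudogenes (Gm8210, Gm8580, Gm10420 and Gm5523). The histone genes are near-identical to each other, and which copy the signals of these and of the pseudogenes come from cannot be told. The others were Actb, which encodes beta actin (420951), Gapdh of glycolysis (364442), Ftl1, the ferritin light chain (376035), the nucleotide exchange factor Arhgef18, the RNA exosome subunit Exosc2 and the glutaredoxin Glrx2. The last group shows the weight of a single probe. Arhgef18 headed the array with 516536 on 1 probe but gave 507 and 6.05 on its others, and Glrx2 gave 371938, 3984 and 6.66. Exosc2 had 1 probe, at 380950. All 78 cytosolic ribosomal protein names on the array were in the brightest 10%, at a median percentile of 99.1, and all 23 reference genes were above background, from Polr2a, the large subunit of RNA polymerase II, at 728 to Rplp0 at 436429. The brightest 25 genes carried 5.83% of the summed signal of all genes above background, and the brightest 10% 82.8%.

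Most HOX genes gave no call. Of 39 HOX genes on the array 6 were well above background, against 58.5% of all RefSeq names. Hoxa9 was the only one in the brighter 50% of genes. Whether its probes read an introduced Hoxa9, the cells' own gene or both cannot be told from these values. In the HOXA cluster Hoxa13 had 255 on 1 of 2 probes (percentiles 36.7 and 0.86) and Hoxa7 43.7 (10.8 and 13.6). The Hoxa13 signal was not matched in the second source, where the same probe was near the bottom. Hoxa10, the neighbour of Hoxa9 in the cluster, had a signal of 5.11, Hoxa5 4.07 and Hoxa6 13.1, none well above background. Hoxb3 was the single HOXB gene above background, at 126 on 1 of 2 probes (27.4 and 28.5), none of 9 HOXC genes was, and Hoxd13 at 104 (24.8 and 13.2) was read through a G/T run of 9 bases.

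Among the TALE partners 8 of 11 were above background. The DNA-binding HOX partners Pbx2 (2043; 65.9 and 66.7) and Pbx3 (1234; 58.5 and 59.7) were above background on every probe, as was Pknox1 (1020; 55.9 and 55.6). The repressor Tgif1 gave 3931 (75.2 and 75.2). Of the Meis family only Meis3 was called, at 165 (31.1 and 33.8); Meis2 gave 5.13 and Meis1 5.76.

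**Figure D3:**
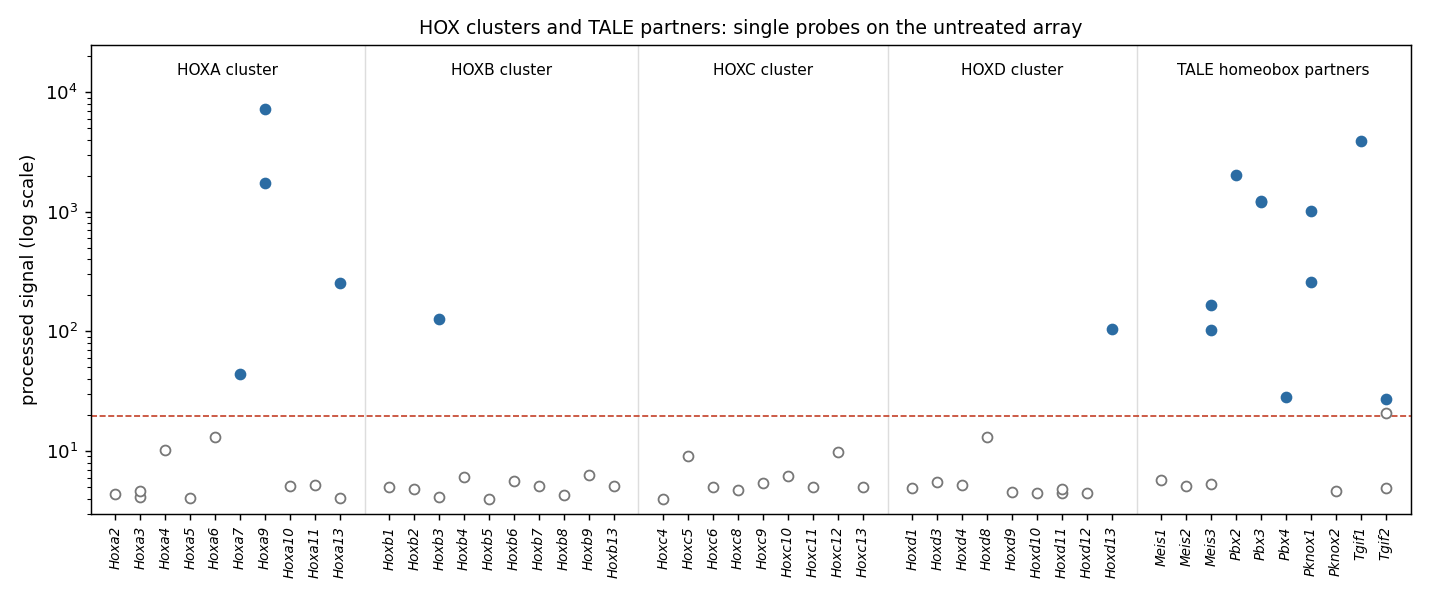
Each point is 1 probe for a HOX gene or a TALE partner on the untreated array (some genes are not drawn), with the processed signal on a log axis; filled points were well above background and open points were not, and the dashed line marks 19.7, the dimmest signal so called. The Hoxa9 probes at 7260 and 1752 stand above every other HOX probe, and Meis1 lies below the line at 5.76.

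Of 29 genes listed as part of the programme downstream of Hoxa9 and Meis1, 26 were above background, at a median percentile of 59.0. Cd34, a sialomucin of stem and progenitor cells, gave 52041 (95.4 and 95.2), with 612 on its other probe. Lmo2, an adaptor of blood transcription complexes, gave 14690 (89.2 and 89.8), the progenitor factor Myb 8964 (84.8 and 84.8), the tyrosine kinase Syk 7809 (83.4 and 82.0), the histone methyltransferase Ezh2 5131 (78.6 and 78.6), Gfi1 4864 (77.9 and 77.6) and Myc 2773 (70.3 and 67.3). The other Syk probe gave 49.1. The receptor kinase Flt3 was dim, at 267 (37.1 and 35.9), as were Mef2c at 224 and Erg at 221. The stem cell factor Hlf lay at 32.0 (5.46 and 4.15). The pseudokinase Trib2, Mecom and Zfp521 were not well above background on any of their probes. Eya1, a transcriptional coactivator, had the brightest signal on the list, 68812, but its only probe holds a G/T run of 34 bases.

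Of 47 myeloid transcription factors 45 were above background, at a median percentile of 60.7, though only Lyl1 (37163) reached the brightest 10%. The granulocyte and monocyte factors of the C/EBP family were Cebpb at 12834 (88.1 and 88.4), Cebpd at 10980 (86.7 and 86.8), Cebpe, which acts late in granulocyte development, at 8991 (84.8 and 84.3), and Cebpa, needed for the first granulocyte-monocyte progenitors, at 1304 (59.4 and 56.8). Spi1, which encodes the myeloid master regulator PU.1, gave 1262 (58.9 and 54.9), Irf8 of the monocyte lineage 6351 (81.1 and 81.5), Gfi1 of the neutrophil lineage 4864, Runx1 3733 (74.6 and 73.5) and its partner Cbfb 12830. Gata2, a stem and progenitor factor, gave 1418 (60.7 and 60.3), Gata1 of the erythroid lineage 34.3 (6.63 and 5.74), and Gata3 and Tal1 were not well above background. Factors of macrophage maturation were dim, with Klf4 at 239, Egr1 at 122 and Maf at 52.5.

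Genes that are recurrently mutated in AML or needed by it were above background in 37 of 39 cases, at a median percentile of 75.1. Npm1, a nucleolar chaperone, led them at 69758 (96.3 and 96.3), followed by the splicing factor U2af1 (31302) and the arginine methyltransferase Prmt1 (25062). The other U2af1 probe gave 1320. Menin, encoded by Men1 and a cofactor of KMT2A in HOXA transcription, gave 5770 (80.1 and 81.8), and Dot1l, the H3K79 methyltransferase, 4634 (77.3 and 77.4). Idh2 gave 17947 (90.5 and 90.9) and Idh1 295 (38.4 and 41.0). Trp53 had 555 (47.2 and 41.7) and Nras 1977. Kmt2a at 11.4 and Wt1 at 4.39 were not well above background, each on its single probe.

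Proliferation genes were above background in 28 of 29 cases, at a median percentile of 85.1. They included the replicative helicase subunits Mcm6 (56753) and Mcm3 (22196), the mitotic genes Birc5 (28771), Plk1 (16269) and Cdc20 (14970), the clamp Pcna (16020) and Mki67 (12918). Aurkb, at 9.86, was the exception, and Tyms, at 166, was read through a G/T run of 8 bases. Among the cyclins, kinases and inhibitors 24 of 26 were above background. Ccnd3 (28980) and Cdk4 (28511) were in the brightest 10%, Ccnd1 gave 9188 and Ccnd2 3694, and Cdk6 439 (43.9 and 42.9). The inhibitor Cdkn1a gave 17370 on 1 probe and 178 and 49.4 on its others. Cdkn2a, a further inhibitor, gave 5538 (79.7 and 81.2), and 598 on its other probe. In the Myc network 16 of 19 were above background. The targets Npm1, Odc1 (45000), Ncl (39819), Nop56 (24676) and Nme1 (23114) were in the brightest 10%, Myc itself was at percentile 70.3 and Max at 88.8, and Mycn and Mycl were not well above background. In the BCL2 family 15 of 17 were, with the effectors Bak1 (22397) and Bax (16724), the protective members Bcl2l1 (10705) and Mcl1 (10179), and Bcl2 at 958 (55.0 and 56.9) through a G/T run of 8 bases. The other Bcl2l1 probe gave 139.

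Granulocyte and monocyte markers were compared with markers of other lineages. Over the primary granule, secondary granule, neutrophil maturation and monocyte lists together, 80 of 87 genes (92.0%) were above background and 23 (26.4%) were in the brightest 10%. Over the lists for B cells, T and NK cells, eosinophils, basophils and mast cells, erythroid cells, megakaryocytes, and stroma, 78 of 134 (58.2%) were, a share close to the 58.5% of all RefSeq names, and 1 (0.746%) was in the brightest 10%. The median percentiles were 69.4 and 26.7. Of all 34773 gene names, 1832 were in the brightest 10%. The lists were chosen with earlier results of these data known, so the contrast describes these lists and is not a test of lineage. The dendritic cell list, whose genes myeloid cells share in part, was in neither pool; its median of 59.6 was above that of the neutrophil maturation list, 58.4.

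Primary granule genes, which promyelocytes switch on before other granule genes, had the highest median of the marker lists. Of 13 genes 12 were above background and 7 in the brightest 10%, at a median percentile of 90.6. Mpo, which encodes myeloperoxidase, gave 240738 (99.2 and 99.1) and 40882 on its other probe. The serine proteases of these granules were Ctsg at 128145 (98.0 and 98.1), Elane at 51526 (95.4 and 94.9) and Prtn3 at 18772 (90.8 and 89.2), and Srgn, the proteoglycan that packs them, gave 52810 (95.5 and 94.7). Ms4a3, a marker of granulocyte-monocyte progenitors, gave 17589 (90.4 and 90.7). Bpi was not well above background, at 8.56.

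Genes of later neutrophil granules were spread widely. Of 18 secondary and tertiary granule genes 15 were above background, at a median percentile of 67.4. Camp, the cathelicidin, gave 53481 (95.5 and 95.1), Hp, haptoglobin, 31691 (93.4 and 93.6), Lcn2 9901 (85.7 and 84.6), Ngp 5047 (78.4 and 73.0) and Ltf, lactoferrin, 3344 (73.2 and 71.8). The collagenase Mmp8 at 456 (44.5 and 46.3) and the gelatinase Mmp9 at 152 (30.1 and 28.2) were dim. Cyba, the p22 subunit of the NADPH oxidase, gave 116462, and its partner Cybb 958.

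All 25 genes of the neutrophil maturation list were above background, at a median percentile of 58.4. The calcium-binding S100a9 (122454) and S100a8 (46038) and the lectins Clec4e (33156) and Clec4d (30856) were in the brightest 10%, as was Csf3r. Itgam, which encodes CD11b, gave 1513 on a probe with an A/C run of 20 bases and 959 and 45.4 on its others. The chemokine receptor Cxcr2 gave 369 (41.5 and 41.6), Retnlg 698 (50.4 and 51.8), and Ly6g, the antigen of mature mouse neutrophils, 38.9 (8.82 and 9.74).

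Of 31 monocyte and macrophage genes 28 were above background and 7 in the brightest 10%, at a median percentile of 68.8. Ly6c1 gave 183320 (98.8 and 98.8), but Ly6c2, the near-identical gene that marks inflammatory monocytes, has no probe under its own name here and the signal may hold both. The extracellular protein Emilin2 gave 86360, the signalling adaptor Tyrobp 80940, Csf1r 24901, the lysosomal Ctss 18317 and Cd68 16747, and F13a1 15712 (89.6 and 88.7). The other probes of Cd68 and F13a1 gave 543 and 203. Adgre1, which encodes F4/80, gave 9507 (85.3 and 85.4), Cd14 2972 (71.4 and 68.7) and Ccr2 2092 (66.2 and 64.7). Other genes of macrophages ranged widely. Apoe gave 5253 (79.0 and 79.3), Marco 1440 (60.9 and 60.5) and Trem2 665 (49.7 and 52.4), C1qa, C1qb and C1qc lay between 197 and 242, and Mertk, Mrc1 and Cd163 were not well above background.

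Of 32 stem and progenitor genes 21 were above background, or 65.6%, near the 58.5% of all RefSeq names. Cd34, Lyl1 and Cd93 (26753) were in the brightest 10%, and Lmo2, Cd48 (11201; 86.9 and 87.1), which is absent from the most primitive stem cells, and Myb lay above percentile 84. Kit gave 412 (43.0 and 40.1), Ly6a, which encodes Sca-1, 849 (53.2 and 53.1) and Procr 162. Slamf1, Fgd5, Tek, Mecom, Hoxb4 and Hoxb5, genes of the stem cell compartment, were not well above background.

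Dendritic cell genes were above background in 16 of 23 cases, at a median percentile of 59.6. The class II gene H2-Ab1 gave 22812 and H2-Eb1 5273, while H2-Aa, which pairs with H2-Ab1, gave 394 and Ciita, their activator, 23.5, which was not well above background. Siglech gave 35704 on 1 probe and 25.6 and 5.29 on its others, neither of which was called. Other members were bright: Bst2 gave 7655 (83.3 and 83.6), Irf8 6351 (81.1 and 81.5) and Cd74 4303 (76.3 and 73.8). Clec10a gave 2737 (70.1 and 71.6) and Tcf4 2399 (68.2 and 65.8) on 1 of 2 probes. Xcr1, Clec9a, Cd209a and Ccr9 were not well above background.

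Markers of other cells were mostly dim. In the erythroid list Hba-a1 (1141; 57.4 and 58.5) and Hbb-bt (1134; 57.3 and 59.8) of haemoglobin and Gypc (2933) were in the brighter 50%, while Klf1, Epor, Sptb and Rhag were not well above background; Hemgn, at 77415, was read by a single probe with a G/T run of 36 bases. In the megakaryocyte list 7 of 17 were above background, and of these only Nfe2, which erythroid and myeloid cells also express, passed percentile 30; 4 of the 7 had another probe that was not called. In the B cell list Cd79b gave 6430 (81.3 and 82.4), while Cd79a gave 172, and Pax5, Ebf1, Rag1, Rag2, Igll1 and Ighm were not well above background. In the T and NK cell list Nkg7 gave 3795 (74.8 and 74.4), Cd3e 1629 (62.7 and 62.6), Lck 985 and Cd4 860 on 1 of 2 probes, with Cd8a, Cd8b1, Tcf7 and Ncr1 not well above background. In the eosinophil, basophil and mast cell list Hdc, histidine decarboxylase, was the brightest at 899, and Epx, Ms4a2, Fcer1a, Cma1 and Mcpt4 were not called. In the stromal list 11 of 26 were above background, with Col1a1, Col1a2, Col3a1, Cxcl12, Cdh5 and Pdgfra not called. What share of these signals comes from other cells in the culture was not tested, and in a bulk sample fewer cells of a type and less RNA per cell cannot be told apart. Of 46 genes restricted to organs other than blood 16 (34.8%) were above background, at a median percentile of 16.9.

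**Figure D4:**
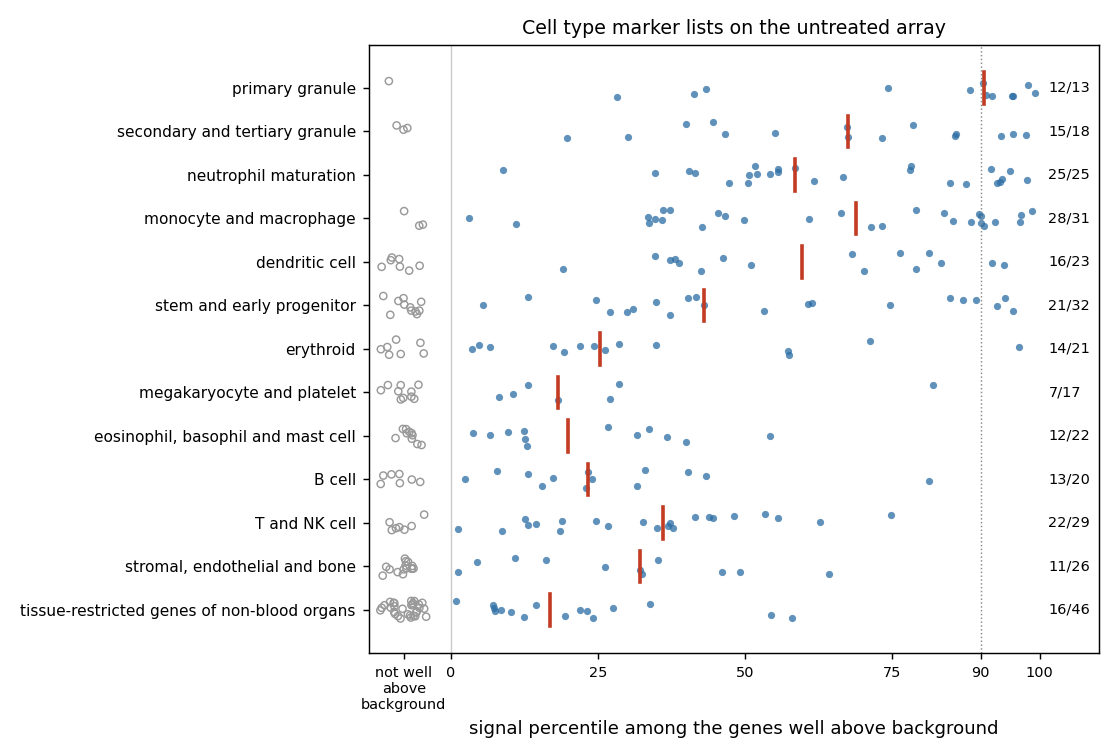
Each filled point is a gene of a cell type marker list, placed by its signal percentile among the genes well above background; open points at the left were not well above background, red bars are the medians, the dotted line marks percentile 90, and the figures at the right give genes above background out of those on the array. The primary granule list has the highest median, 90.6, and the list of genes of other organs the lowest, 16.9.

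Of 28 growth factor and cytokine receptors 26 were above background and 4 in the brightest 10%. Csf3r, the receptor for G-CSF, gave 26663 (92.7 and 92.7), Csf1r, the receptor for M-CSF, 24901 (92.3 and 92.7), Csf2rb, the chain shared by the receptors for GM-CSF and IL-3, 24335 (92.2 and 91.6), and Il3ra, the IL-3-specific chain, 20446 (91.2 and 92.2). Csf1r shows the dependence on the probe chosen, since its other probes gave 1253 and 563. Csf2ra gave 12126 and Il6ra 10941 (86.6 and 88.1). Kit, Flt3 and Il7r (98.7) were in the dimmer 50%, and Epor and Il1r1 were not well above background.

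Among 28 ligands 20 were above background and none was in the brightest 10%. Tgfb1 (5202), Tnf (3727; 74.6 and 73.0), the chemokine Ccl3 (2386), Csf1 (2152; 66.5 and 64.5) and the chemokine Ccl5 (1720) were the brightest. Flt3l, the ligand of Flt3, gave 993 and Il1b 775. Il3, Csf2, Csf3, Il4, Il5, Thpo, Epo and Ifnb1 were not well above background, and Kitl and Il1a, at 30.4 and 30.2, gave 8.95 and 9.69 in the second source.

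Receptors for retinoids and vitamin D, the targets of one of the treatments in the series, were in part above background without treatment. Rara gave 6836 (82.0 and 81.5), Rarg 1083 (56.6 and 56.5) and the heterodimer partner Rxrb 18767 (90.8 and 91.0), while Rxra gave 128 (27.8 and 24.0). Rxrg gave 1128 on its brighter probe and 3.95 on the other, which was not called. None of the 3 Rarb probes was called. Vdr, the vitamin D receptor, gave 450 (44.3 and 43.0). Over all nuclear receptors 26 of 35 were above background. Nr3c1, the glucocorticoid receptor, gave 3061 and Nr1h2, an oxysterol receptor, 6970; Thrb and Nr3c2 were not called.

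On the surface, 24 of 29 proteins studied as leukaemia or stem cell targets were above background, at a median percentile of 60.7. Cd47, the signal that restrains phagocytosis, gave 65759 (96.1 and 95.7) and 55105 on a further probe, though 99.8 on the third. Cd34, the inhibitory receptor Lilrb4a (37227; 94.1 and 93.9), Cd93 and Il3ra were also in the brightest 10%. Cd99 gave 15900, Cd48 11201, and Cd44, the hyaluronan receptor, 10980 (86.7 and 86.6). Cd33 was near the middle, at 1307 (59.5 and 57.1), as were Cd244a (1190) and Cd274, which encodes PD-L1 (1130). Havcr2 gave 210, Il1rap 179 on 1 of 3 probes and Clec12a 26.5 (2.10 and 2.12), while Cd96, Cd27, Cd200, Folr2 and Cd70 were not well above background.

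Common leukocyte surface proteins were above background in 29 of 31 cases, at a median percentile of 80.2. The class I genes H2-K1 (173003) and H2-D1 (128645), which are too alike to be sure that each probe reads 1 of them, and B2m (123234) were bright, followed by Cd63 (72178), Ly6e (58808) and Cd52 (37881). Ptprc, which encodes CD45, gave 3394 (73.3 and 68.4). The complement regulators Cd55 and Cd46 were not called. Of 32 integrins and homing receptors 26 were above background: Itgb7 gave 14748, Itga6 14727, Selplg 11538 and Itgb2 4918, while Cxcr4, the receptor that holds progenitors in the marrow, gave 804 (52.4 and 52.5). The other Itga6 probe gave 332. Of 26 Toll-like and Fc receptor genes 22 were: the Fc gamma chain Fcer1g gave 84403, the adaptor Myd88 9770, Tlr2 4741 (77.6 and 78.5) and Tlr4 362 on 1 of 2 probes, and Tlr3, Tlr8 and Tlr11 were not called.

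Most steps of glycolysis had a gene in the brightest 10%. Isoforms are read by different probes, so their signals do not rank their RNA amounts. Of 41 genes of glucose uptake, glycolysis and lactate 31 were above background and 10 in the brightest 10%: Gapdh, Aldoa (169176), Ldha (132254), Hk1 (123637), Gpi1 (111311), Eno1 (95374), Pkm (95296), Pgk1 (66996), Pgam1 (61669) and Tpi1 (42486). The other Hk1 probes gave 11947 and 682. Several isoforms known from liver or testis were not called: Pklr gave 7.21, Ldhc 4.12, Pgk2 8.34 and Gapdhs 23.2, none well above background. Ldhb, at 5.53, and Pdk4 were also not called. The phosphofructokinases did not reach the brightest 10%, with Pfkp at 2172, Pfkl at 867 and Pfkm at 635. The glucose transporters Slc2a3 (3854) and Slc2a1 (3722; 74.5 and 74.7) and the lactate exporter Slc16a3 (6033; 80.6 and 81.8) lay in the brightest 30%, Slc16a1 at 70.2 (18.9 and 19.9) did not, and Slc2a2 and Slc2a4 were not called.

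In the pentose phosphate pathway 10 of 11 genes were above background, at a median percentile of 82.9. Taldo1 (97741) and Tkt (78168) of the non-oxidative branch and Pgd (25367) and G6pdx (16643), which make NADPH, were in the brightest 10%. Of 30 genes of pyruvate and the citric acid cycle 28 were above background, at a median percentile of 86.7, among them Mdh2 (73496), Cs (41297) and Sdhb (34009); the cytosolic Aco1 gave 59.8 and Idh1 295. Of 46 respiratory chain genes 44 were above background and 28 in the brightest 10%, at a median percentile of 91.5. They included Cox6a1 (175535), Atp5b (132325), Cox8a (104513), Cox5a (86226) and Cox4i1 (80396). Isoforms known from particular tissues lay lower, with Cox6a2 at 442, Cox7a1 at 952 and Cox4i2 at 393, and Cox8b and Cyct were not called.

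Lipid synthesis was represented by all 24 genes of the cholesterol pathway, at a median percentile of 70.5. Ebp (25872) and Fdps (24733) were in the brightest 10%; Hmgcs1 gave 9619 on 1 of 2 probes. Of 30 fatty acid genes 28 were above background, with Fabp5 (52433), Etfb (51631) and Elovl1 (49328) brightest. Etfb gave 17649 and 365 on its other probes. The desaturase Scd2 gave 16769 whereas Scd1 was not called, at 6.72, and Fasn gave 231 (35.4 and 34.1). The oxidation genes Acadvl (8393), Hadhb (7986), Acadm (7063) and Cpt1a (2836) lay above percentile 70 on the scanner array.

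Of 33 genes of serine, one-carbon and nucleotide synthesis 32 were above background. The first enzymes of serine synthesis, Phgdh (25694; 92.5 and 93.1) and Psat1 (21185; 91.4 and 91.5), and Impdh2 of guanine nucleotide synthesis (26159) were in the brightest 10%, and the mitochondrial folate enzymes Mthfd2 (8212) and Shmt2 (7441) lay above percentile 82. Of 37 genes of amino acid and polyamine metabolism 34 were above background. Odc1 and Srm (29416) of polyamine synthesis and Asns (17623) were in the brightest 10%; the glutamine transporter Slc1a5 gave 5435 and the cystine transporter Slc7a11 30.6. Arg1, Ido1 and Tdo2 were not called.

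All 29 antioxidant enzymes were above background and 9 were in the brightest 10%, at a median percentile of 78.0. Gpx1 gave 188132 (98.8 and 98.8), Sod1 59587, Prdx5 52998, Sod2 51134 and Gsr 35060. Catalase, Cat, gave 329 on a probe with an A/C run of 16 bases, and Nqo1 80.0 (20.8 and 23.1). Of 24 genes of haem and iron 22 were above background. Ferritin, encoded by Ftl1 and Fth1 (208283), was in the brightest 10%, as was Alas1 (73150), the haem synthesis enzyme of most tissues, with 935 on its other probe. Alas2, its erythroid form, gave 28.7 (3.56 and 7.89), and the transferrin receptor Tfrc 873 (53.6 and 52.4).

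**Figure D5:**
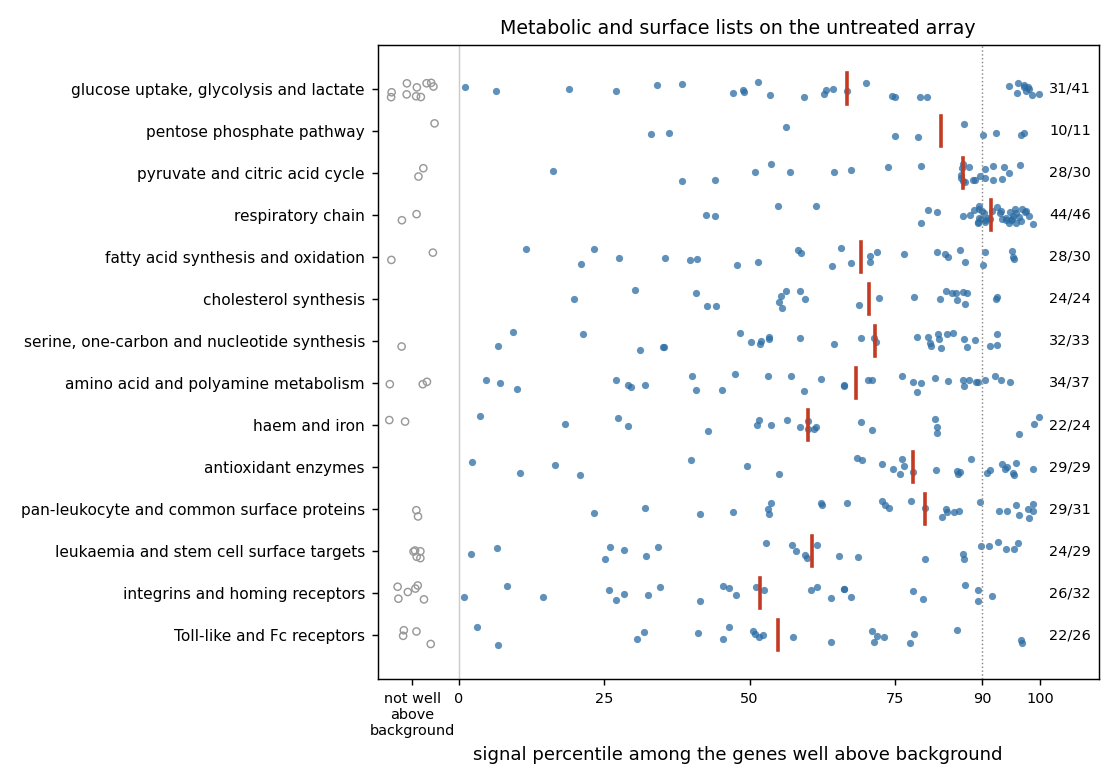
Genes of the metabolic and surface lists are placed by signal percentile as filled points, with open points for genes not well above background, red bars for medians and a dotted line at percentile 90; the figures at the right give genes above background out of those on the array. The respiratory chain has the highest median, 91.5, and the integrins and homing receptors the lowest, 51.7.

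Of the sex chromosome markers, Xist, which is transcribed from the inactive X chromosome, was above background at 357 (41.0 and 37.7) on both probes, and none of 7 Y-linked genes was, with signals between 4.38 and 5.48.

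Few genes above the median signal in either source differed by 2-fold or more between the control sources. Of 7469 such RefSeq genes, 6 were at least 2-fold apart, all of them lower on the scanner array. A gene above the median in the control column alone was counted, and Fam13c was at percentile 40.8 on the scanner array. The 8 largest in the direction of the scanner array ran from Iqsec3, at 0.93 on the log2 scale, through Golt1a, Magef1, the mitochondrial gene COX1, Blcap, Fmnl1 and Fam120a to Szrd1, at 0.73, and 4 of them were read by a G/T run of at least 8 bases (Golt1a, Magef1, Blcap and Szrd1). The 8 largest in the other direction ran from Fam13c, at -1.78, through Klra1, Rabgap1, Scn3b, Ddx25, Tbx22 and Gbp6 to Tdgf1, at -0.97, and none of them was. Over the 883 listed genes above background, 8 were at least 2-fold apart: Hoxa13, Pgam2, Kitl and Il1a higher on the scanner array, and Entpd1, Lif, Pgr and Sod3 lower. These listed genes were chosen by their call on the scanner array alone, which favours genes near the floor that are high there.

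Promoter composition differed between bright, dim and uncalled genes. RefSeq promoter windows of build GRCm38 (300 bases, from 250 before to 50 after the start) were matched by symbol for 16149 protein-coding genes. The median number of CpG sites was 4 in the 6070 genes not well above background, 10 in the dimmest 10%, 20 in the 8587 genes between and 20 in the brightest 10%; the ratio of observed to expected CpG was 0.27, 0.45, 0.76 and 0.78. The letters TATAAA, on either strand, were found in 20.9%, 13.2%, 7.02% and 11.4% of these windows in the same order, and in 12.7% of all, so the share was lowest in the genes between. The primary granule genes had a median of 6.5 CpG sites over 12 windows and TATAAA in 33.3% of them; no test of that share was made.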

How the data were processed

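Per the labels, 50 ng of DNase-treated total RNA was amplified with a low-input kit and labelled with Cy3. Per the submitters' processing notes the arrays were read with Agilent Feature Extraction 11.5.1.1. The deposited scanner file holds a spot intensity corrected for background (linear scale, not scaled between arrays), and other deposited columns are flags of 0 or 1 for spots well above background, uneven or saturated (other than intensity). The value table deposited by the authors holds linear intensities; its columns hold the same sorted values, as quantile normalization gives, and other steps that made it are not given in the sources used here. By rank over all spots its control column matched the untreated scanner file with a Spearman correlation of 0.936, and the treated scanner files with 0.923 and 0.925. Its treated columns matched by rank the scanner files with the other treated label. Whether the label of the untreated array is affected cannot be told from these values.

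Of 59305 spots that were not controls, 14 uneven spots were dropped and none was saturated; log2 signals were averaged over the spots of each of 55668 probes. A probe was above background when more than 50% of its spots were. Probes were named by RefSeq accession (27652), symbol (3400) or synonym (321), and 24295 kept the file's name. A gene took its brightest probe above background, or its brightest probe where none was. The control sources were each scaled to the 75th percentile. The number of arrays limits the precision: with 1 array a value has no error across cultures.

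The 45 gene lists (1103 genes, 1100 on the array by name) and the genes described were chosen with earlier results of these data known. Ly6c2, Bcl2a1a and Bcl2a1b were not matched. The rule for named genes took the 25 brightest RefSeq genes, members of the lists, the 8 largest differences each way between the control sources, the 6 brightest genes with a G and T run and 19 genes whatever their value; other genes are named after their values were seen. Steps were tested on simulated data. Python 3.11.15, numpy 2.4.6, pandas 2.3.3, scipy 1.17.1 and limma 3.58.1 in R 4.3.3 (for normexp) were used. Some genes counted in the lists are not reported by name here.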

Additional observations from a re-analysis of the deposited data

How the results depend on the processing

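The number of genes above background was 18322 and stayed within 1.5 times of that in every setting run: 16667 with a floor of 2 times the lowest signal above background, 15514 when more than 50% of a gene's probes had to be above background, 18107 without probes that hold a G/T run, and 13076 among RefSeq names. The count of listed genes above background (883) ranged from 827 to 877 over the first 3 settings. The number in the brightest 10% (225) ranged from 219 to 226, and the median of the list medians (60.7) from 60.2 to 64.0, over the median of a gene's probes, normexp and the second control source. The count of genes at least 2-fold apart between the control sources was 586, 637 after matching by rank, 580 without run probes, and 22 among genes above the median signal in either source, where fewer genes are counted. In the counts of genes above background, single lists moved where they hold few called genes. With more than 50% of probes required, HOXA fell from 4 to 2, HOXB from 1 to 0 and megakaryocyte genes from 7 to 3, and without run probes HOXD fell from 1 to 0. Ranks depended more on the choice of probe. With the median of a gene's probes above background, 10 of 44 list medians moved by more than 3.63 percentiles. The value 3.63 is the SD of the percentile difference between the control sources. By the same measure 11 of 18 named genes moved, and in 4 of 44 lists the count in the brightest 10% changed by more than 1.5 times. With that median the percentile of Csf1r was 64.1 in place of 92.3, that of Cd34 83.3 in place of 95.4 and that of Flt3 29.2 in place of 37.1. No paired analysis was possible because each group is 1 array. Depth is limited by signal over background: in the dimmest 10% of genes the control sources differed with an SD of 0.83 on the log2 scale, in the brightest 10% with 0.17.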

Other observations

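Long non-coding RNAs were called less often than protein-coding genes. Of 1693 long non-coding RNAs that RefSeq names, 414 (24.5%) were well above background, at a median percentile of 21.5, against 12412 of 20171 protein-coding genes (61.5%), at 56.5. Of the 15 brightest, 6 were read through a G/T run of at least 8 bases. Among the other brightest ones were hosts of small nucleolar RNAs, named after their values were seen: Snhg6 at a signal of 21012, Gas5 at 16066 on the brightest of 3 probes that were all above background, Snhg15 at 14966 and Zfas1 at 10107, each within percentiles 85 and 92 in both control sources. Of 142 pseudogenes 94 (66.2%) were above background, at a median percentile of 83.2, and of 266 transcribed pseudogenes 117 (44.0%) were, at 62.3; the array does not tell them from their parent genes. Of 12404 names that are not in the RefSeq table, 5246 were above background.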
